A study of Mus musculus with 3 samples.

Results

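Type 1 conventional dendritic cells (cDC1) were examined among immune cells of the inflamed sciatic nerve. They were taken as cells with at least 1 UMI of Xcr1 or Clec9a and at least 3 UMIs of the class II gene H2-Ab1, where each UMI (unique molecular identifier) stands for 1 captured transcript. A cell was left out if it had both Ccr7 and Fscn1 UMIs, any UMI of Cd3d, Cd3e, Cd3g or Cd79a, more than 1 UMI of C1qa, C1qb and C1qc together, or more than 1 UMI of Siglech. These limits kept 139 of 13637 cells. The cells were chosen by these measured UMI counts, so the levels of the genes named in these limits are given as a description, with no test.

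The cells came from neuropathic NOD.AireGW/+ mice, females per the study's methods, whose age is not given in the sources used here. The mice are heterozygous for the GW allele of Aire, a gene for immune tolerance in the thymus whose function the allele lowers in part, on the autoimmunity-prone NOD background. Sciatic nerves were taken after cardiac perfusion and digested with collagenase IV, and CD45+ cells, that is all immune cells, were sequenced with a 10x Genomics 5′ kit. Libraries 1 and 2 held 1 mouse each and library 3 pooled 2 mice, all in 1 group, and no control group was analysed here. Every mouse carried the same genotype and disease, so all comparisons below are between cell types of the same libraries and none tests an effect of the allele or of the disease.

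The libraries held 3926, 8311 and 1533 cells with a median of 3985.5, 4659 and 1726 UMIs per cell, and 3848, 8256 and 1533 cells had at most 5000 genes and 20% mitochondrial UMIs. The cDC1 were deep cells, with a median of 14113.5, 11074 and 7901 UMIs in libraries 1, 2 and 3. They gave 245475, 1288842 and 51306 UMIs in all, so that library 2 carried most of the counts and library 3 the fewest. Between 21 and 50 cell barcodes of a library also occurred in another library, and 0 of these belonged to cDC1.

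cDC1 develop from bone marrow precursors under the growth factor FLT3 ligand and need the transcription factors IRF8 and BATF3. The chemokine receptor XCR1 draws them to XCL1 from natural killer cells and activated CD8 T cells, and CLEC9A binds actin exposed on dead cells. They are best known for cross-presentation, the display of peptides from ingested material on class I molecules to CD8 T cells. In peripheral nerve most resident myeloid cells are macrophages, and conventional dendritic cells are rare.

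Libraries 1, 2 and 3 held 20, 111 and 8 cDC1. These were 0.520% of the kept cells in library 1 (95% exact Clopper-Pearson interval 0.318 to 0.802), 1.34% in library 2 (1.11 to 1.62) and 0.522% in library 3 (0.226 to 1.03). The mean share was 0.795% ± 0.476 (SD, n = 3 libraries). Libraries 1 and 3 had near-equal shares, and the interval of library 2 lay above both. This depended on the limits on Cd3 and Cd79a: with up to 3 UMIs allowed of each, an alternative chosen after seeing the data, the cDC1 numbered 41, 120 and 9, or 1.07%, 1.45% and 0.587% of the kept cells, so that library 1 lay nearer to library 2 than to library 3. With at least 2 UMIs of Xcr1 and Clec9a together required, the cDC1 numbered 17, 84 and 3. These were 0.442%, 1.02% and 0.196% of the kept cells, so the near-equality of libraries 1 and 3 also depended on this threshold. Library 3 was the shallowest, with a median of 1726 UMIs per cell, and the part of depth in these shares was not tested. Intervals on shares and ratios here cover counting error only, not differences between mice.

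Xcr1 (GRCm38, the build mm10, chr9:123852315-123862029, minus strand) encodes the receptor for XCL1, and Clec9a (chr6:129408862-129424763, plus strand) the dead-cell receptor. Of the 139 cells, 73 had UMIs of both genes, 19 of Xcr1 alone and 47 of Clec9a alone. Xcr1 stood at 154.8, 180.0 and 116.9 UMIs per 1000000 UMIs of the cells (CPM) in libraries 1, 2 and 3. Clec9a stood at 215.9, 169.9 and 136.4 CPM. Library 3 was the lowest for both genes. Among the cDC1, 35 cells had a single UMI of the pair and 104 had more. 11 cells held a Ccr7 UMI, 5 a Fscn1 UMI and 7 a UMI of Cd209a, a lectin of type 2 conventional dendritic cells (cDC2).

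Most cells with an Xcr1 or Clec9a UMI did not meet every limit. Of 137 such cells in library 1, 40 failed only the limit on Cd3 and 18 only that on Siglech, and 56 failed several. The cells of library 1 that failed only the Cd3 limit had a median of 18981 UMIs, above the 14113.5 of the cDC1. In library 2, with 381 such cells, 62 failed only the limit on C1q, 50 only that on Cd3 and 31 only that on Siglech. In library 3, 8 of 14 such cells met all limits. Cells barred by Cd3 were thus the most frequent single loss in library 1, and cells barred by C1q in library 2. Whether those cells are doublets, cells with free RNA of neighbours or true cDC1 was not tested.

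**Figure D1:**
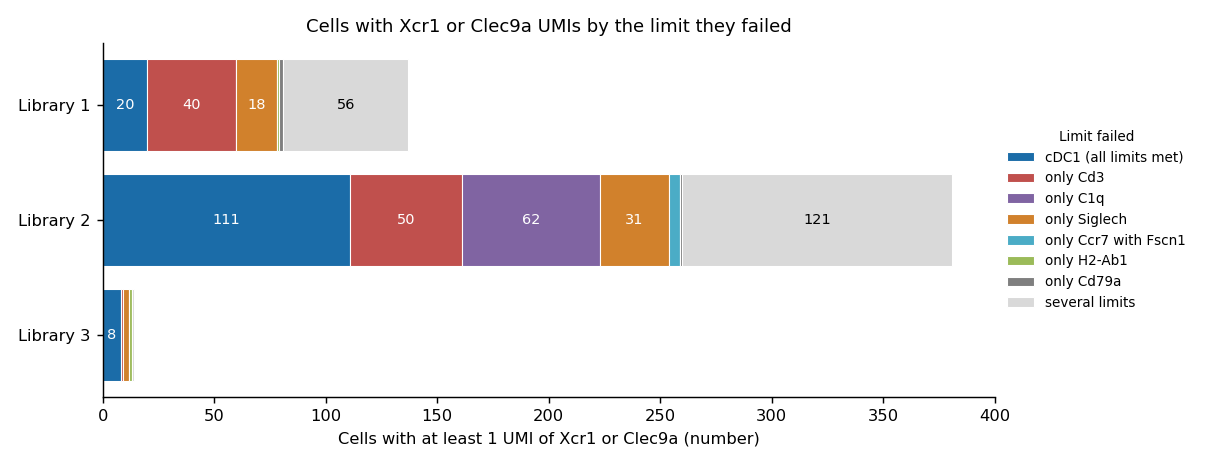
Number of cells with at least 1 UMI of Xcr1 or Clec9a in each library (x axis), split by the limit they failed, with the numbers of the larger pieces printed on them. The blue pieces are the cDC1, 20, 111 and 8 cells, and the largest single-limit losses are 40 cells by Cd3 in library 1 and 62 by C1q in library 2.

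The threshold on Xcr1 and Clec9a was compared with what lies just outside it in library 2. Cells there that met every other limit comprised 267 with 0 UMIs of the pair, 27 with 1 and 84 with more. Irf8, which encodes the lineage transcription factor, stood at 228, 523 and 1218 CPM in these cells in that order. Wdfy4, which is needed for cross-presentation of cell-associated antigen, stood at 72.8, 331 and 368 CPM. Lyz2, the lysozyme gene of monocytes and macrophages, went the other way, at 3416, 846 and 317 CPM. Cells with a single UMI lay nearer to those with more than to those with none for Wdfy4, and in between for Irf8. In library 1, with 38, 3 and 17 such cells, Wdfy4 stood at 48.1, 49.6 and 355 CPM and Irf8 at 203, 446 and 1025 CPM. The middle Wdfy4 value rests on 1 Wdfy4 UMI in 3 cells and does not place them. In library 3, with 41, 5 and 3 such cells, Wdfy4 stood at 63.1, 322 and 304 CPM and Irf8 at 126, 414 and 338 CPM. Naaa, Tlr3 and Itgae were also higher there in the last cells than in the first. Batf3, Flt3 and Cadm1 went the other way, at 110.5, 71.0 and 7.89 CPM in the first cells and 33.8, 33.8 and 0 CPM in the last. The latter values rest on 1, 1 and 0 UMIs in 3 cells.

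The label was checked against identity genes that the limits did not use. Irf8 UMIs were found in 90.0%, 94.6% and 75.0% of cDC1 in libraries 1, 2 and 3, against 17.6%, 15.0% and 6.22% of T cells, whose median depths were 3711, 2735 and 1795 UMIs and whose shares include free RNA. Naaa, which encodes a lipid amidase abundant in cDC1, was found in 80.0%, 92.8% and 75.0% of cDC1 and in 6.93%, 5.04% and 1.55% of T cells. Wdfy4 was found in 80.0%, 84.7% and 62.5% of cDC1 and in 1.14%, 1.16% and 0.173% of T cells. Each of these genes was seen in most cDC1 of every library and in few T cells. Cells with Xcr1 or Clec9a UMIs were left out of the T cells, which favours this contrast.

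Other identity genes were detected less evenly. Batf3 UMIs were in 50%, 69.4% and 50% of the cDC1, and Tlr3, the sensor of double-stranded RNA in endosomes, in 55.0%, 40.5% and 37.5%. In T cells Batf3 was found in 1.40%, 2.33% and 0.432% and Tlr3 in 0.221%, 0.226% and 0%. Itgae, the integrin chain CD103, was in 55.0%, 62.2% and 37.5%, and T cells, some of which use this integrin, held it in 21.2%, 14.9% and 6.39%. Snx22, a sorting nexin gene of cDC1, was in 55.0%, 59.5% and 12.5%, against at most 0.517% of T cells. Cadm1, an adhesion molecule used to mark cDC1, was in 20.0% and 37.8% of the cDC1 of libraries 1 and 2 and in 0 of the 8 cells of library 3, and it was more frequent in plasmacytoid dendritic cells, at 89.3%, 65.2% and 50%. Most of these genes were thus found in a larger share of cDC1 than of T cells, while Cadm1 did not set the cDC1 apart from plasmacytoid cells, and their levels against plasmacytoid cells are given below.

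**Figure D2:**
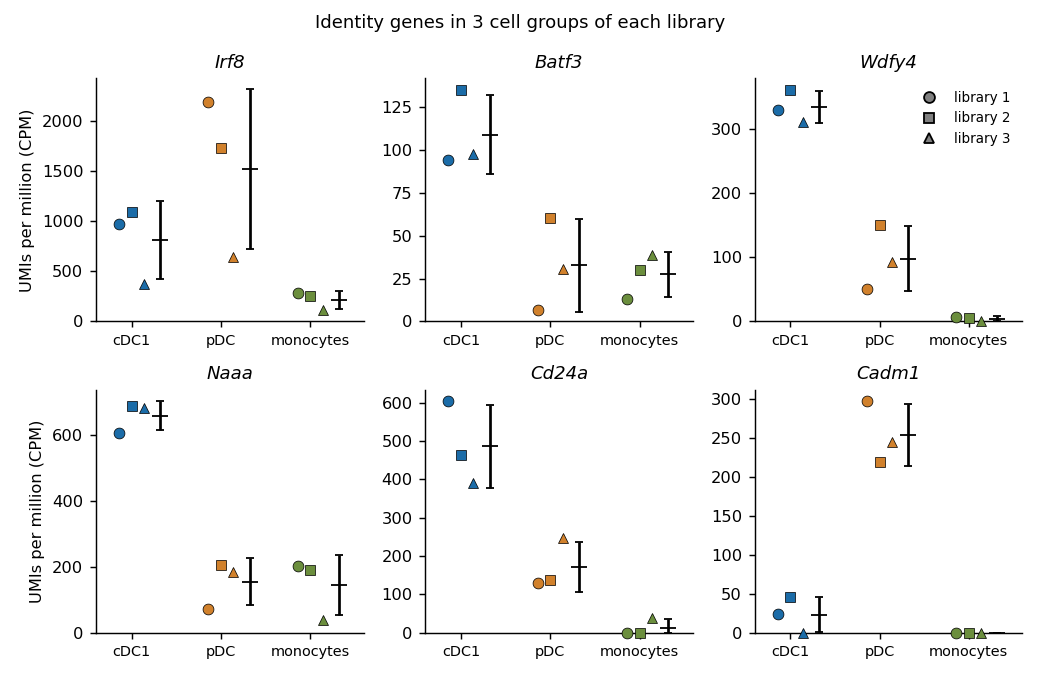
Levels of 6 cDC1 identity genes that the limits did not use, in CPM (y axis), in cDC1, plasmacytoid dendritic cells (pDC) and monocytes, with 1 point per library and bars for the mean ± SD of 3 libraries. Batf3, Wdfy4, Naaa and Cd24a are highest in cDC1 in every library, while Irf8 and Cadm1 are highest in pDC.

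Genes of most other lineages were at low levels in the cDC1, and those of monocytes were not. Of 8 monocyte genes, 4, 7 and 3 had a UMI in libraries 1, 2 and 3, with a summed level of 2004, 1123 and 1072 CPM against 7251, 3718 and 6488 CPM in monocytes. In library 2 this sum was above that of C1q macrophages (565 CPM) and mature dendritic cells (355 CPM). Most of it came from Plac8, at 1275, 778 and 916 CPM, while Chil3 was at 0. Of 8 further T cell genes, 4, 4 and 1 had a UMI in libraries 1, 2 and 3, with a summed level of 36.7, 3.88 and 19.5 CPM against 3192, 2281 and 2551 CPM in T cells. Of 11 macrophage genes, 6, 9 and 3 had a UMI, with a summed level of 583, 821 and 273 CPM against 8032, 17841 and 12975 CPM in monocytes. Of 8 B cell genes, 4, 4 and 1 had a UMI, summing to 143, 142 and 136 CPM, and Ms4a1 and Fcmr were at 0. Of 8 Schwann cell and myelin genes, 2, 3 and 1 had a UMI, at 36.7, 72.2 and 19.5 CPM, close to the 73.0, 67.3 and 53.6 CPM of T cells. Apoe, a lipoprotein gene abundant in macrophages, was found in 35.1% of the cDC1 of library 2 and 31.7% of its T cells, and in 0 cDC1 of libraries 1 and 3. The part of this RNA in the results below was not tested.

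The cell types closest to cDC1 were scarce outside library 2. Cd209a cDC2 (Cd209a UMIs, no Xcr1 or Clec9a UMI) numbered 0, 20 and 1 cells in libraries 1, 2 and 3. Mature dendritic cells with both Ccr7 and Fscn1 UMIs numbered 0, 29 and 0. C1q macrophages numbered 5, 1719 and 4, or 20.8% of the kept cells of library 2 and 0.130% and 0.261% of libraries 1 and 3. Plasmacytoid dendritic cells (pDC, at least 2 Siglech UMIs) numbered 28, 89 and 6, and monocytes (Lyz2 and Ly6c2 UMIs) 18, 89 and 6. These last types reached at least 5 cells in every library, so differences from pDC and monocytes were tested across libraries and those from the others are described for library 2. Xcr1 and Clec9a UMIs were not barred from pDC, and 18, 31 and 3 pDC of libraries 1, 2 and 3 held them.

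UMIs were summed per library and cell type, and genes were tested with edgeR's quasi-likelihood test. The library was the replicate block, since the cell types of a library came from the same mice, and p values were adjusted by Benjamini-Hochberg over 4251 genes. A gene was called at an adjusted p under 0.05. Both comparisons use the same cDC1 sums, and they were added after the data were seen because the planned ones could not be fitted. The mice were of NOD strain and reads were mapped to a C57BL/6 reference, so levels of the polymorphic H2 genes may be misjudged in all cell types alike.

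pDC, which share the need for FLT3 ligand and make type I interferon, were the first comparison. Against pDC, 995 genes were called (23.4% of those tested), 419 of them higher in cDC1 (9.86%) and 576 lower (13.5%), with a median log2 difference over all genes of -0.02. Of the 22 genes of the cDC1 identity list, 19 could be tested, with 14 higher in cDC1, 3 lower and a median log2 difference of 1.75. This direction follows in part from how the cells were chosen and serves as a check of the label. Of 14 genes of class II presentation, 10 were higher and 1 was lower, with a median of 1.17. Of 20 genes of class I presentation, 6 were higher and 0 lower, with a median of 0.51.

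Wdfy4 stood at 330, 362 and 312 CPM in the cDC1 of libraries 1, 2 and 3 and at 50.1, 151 and 92.2 CPM in pDC, a log2 difference of 1.88 ± 0.30 (SE, edgeR adjusted p = 2.8e-05). Naaa stood at 607, 688 and 682 CPM against 73.5, 206 and 184 CPM, a log2 difference of 2.31 ± 0.31 (edgeR adjusted p = 2.8e-06). Id2, a repressor of E proteins needed for cDC1 and opposed to the pDC fate, stood at 1072, 560 and 331 CPM against 80.2, 157 and 154 CPM, a log2 difference of 2.51 ± 0.35 (edgeR adjusted p = 4.1e-06). For these genes every cDC1 sum lay above every pDC sum. Cadm1 was lower in cDC1, at 24.5, 45.8 and 0 CPM against 298, 219 and 246 CPM, with a log2 difference of -2.67 ± 0.35 (edgeR adjusted p = 3.4e-06). Cd8a, which marks cDC1 of lymphoid organs, was also lower, at 16.3, 5.43 and 0 CPM against 73.5, 68.0 and 61.5 CPM, with a log2 difference of -3.03 ± 0.54 (edgeR adjusted p = 0.00013).

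The remaining identity genes rested more on single libraries. Irf8 stood at 978, 1098 and 370 CPM in cDC1 and at 2193, 1731 and 645 CPM in pDC, lower in cDC1 within each library by a log2 difference of -0.79 ± 0.20 (edgeR adjusted p = 0.0052). Without library 1 the difference was -0.63 (edgeR adjusted p = 0.16), and its adjusted p was 0.23 with no replicate block, 0.060 with no filter on low counts and 0.056 without cells holding T or B cell UMIs. Batf3 stood at 93.7, 135 and 97.5 CPM against 6.69, 60.4 and 30.7 CPM, a log2 difference of 1.75 (edgeR adjusted p = 0.0015) that fell to 1.25 without library 1 (adjusted p = 0.079), with an adjusted p of 0.058 with no replicate block and 0.052 with DESeq2. Itgae stood at 196, 184 and 117 CPM against 60.2, 96.3 and 30.7 CPM, a log2 difference of 1.35 (edgeR adjusted p = 0.0023, but 0.092 without library 1, 0.069 with no replicate block, 0.088 with DESeq2 and 0.052 without cells holding T or B cell UMIs). Their cDC1 sums were nevertheless on the same side of the pDC sums in all 3 libraries.

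Among genes shared by conventional dendritic cells, 6 of 9 tested were higher in cDC1 than in pDC and 1 was lower. Cst3, which encodes cystatin C and is a main transcript of conventional dendritic cells, stood at 16720, 18070 and 20370 CPM against 2724, 6794 and 5100 CPM, a log2 difference of 2.08 ± 0.20 (edgeR adjusted p = 9.3e-09). Kit, the stem cell factor receptor, stood at 163, 84.6 and 78.0 CPM against 0, 20.8 and 0 CPM, a log2 difference of 3.18 ± 0.52 (edgeR adjusted p = 4.1e-05). Flt3, the receptor for FLT3 ligand, stood at 236, 116 and 58.5 CPM against 257, 178 and 123 CPM, a log2 difference of -0.33 that did not pass the test (edgeR adjusted p = 0.43). Bcl11a, a transcription factor of the pDC lineage, was lower at 36.7, 25.6 and 19.5 CPM against 231, 161 and 123 CPM, a log2 difference of -2.55 ± 0.33 (edgeR adjusted p = 1.6e-06).

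Among the class II genes, 3 of 14 did not pass the test against pDC and 1 protease was lower in cDC1. H2-DMb1, a chain of the peptide-exchange factor of class II, stood at 391, 583 and 585 CPM against 130, 238 and 215 CPM in pDC, a log2 difference of 1.52 ± 0.24 (edgeR adjusted p = 2.2e-05). Ifi30, a thiol reductase of antigen-processing endosomes, stood at 2277, 1910 and 2924 CPM against 819, 725 and 1690 CPM, a log2 difference of 1.35 ± 0.21 (edgeR adjusted p = 2e-05). H2-Aa, the class II alpha chain, stood at 18680, 20660 and 17600 CPM against 6591, 10050 and 10820 CPM, a log2 difference of 1.19 ± 0.23 (edgeR adjusted p = 0.00038) whose adjusted p was 0.12 with no replicate block. Ctsl, the protease cathepsin L, was nearly absent from cDC1 at 20.4, 17.9 and 0 CPM against 1681, 1212 and 1260 CPM, a log2 difference of -6.26 ± 0.34 (edgeR adjusted p = 4.7e-13).

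In the class I group, the peptide transporter and a proteasome activator stood out. Tap1, a subunit of the transporter that loads peptides into the endoplasmic reticulum, stood at 363, 256 and 273 CPM in cDC1 against 130, 121 and 92.2 CPM in pDC, a log2 difference of 1.41 ± 0.28 (edgeR adjusted p = 0.00035). Psme2, a subunit of the interferon-inducible proteasome activator, stood at 937, 1117 and 1364 CPM against 565, 623 and 615 CPM, a log2 difference of 0.98 ± 0.20 (edgeR adjusted p = 0.00061). Rab43, a small GTPase with a part in cross-presentation, stood at 147, 168 and 136 CPM against 26.7, 62.3 and 0 CPM, a log2 difference of 1.91 ± 0.35 (edgeR adjusted p = 0.00016). In each of the 3 libraries, each of these genes was higher in cDC1.

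Of the 14 cytokine and chemokine genes tested, 5 were higher in cDC1 than in pDC and 4 lower, with a median of -0.36. Cxcl9, a T cell-attracting chemokine induced by interferon gamma, stood at 676, 362 and 409 CPM against 197, 39.7 and 0 CPM, a log2 difference of 2.59 ± 0.32 (edgeR adjusted p = 7e-07). Its UMIs were found in 25.0%, 37.8% and 37.5% of the cDC1 and in 1.70%, 2.17% and 0.259% of T cells. Cxcl10, another ligand of the receptor CXCR3, stood at 746, 105 and 273 CPM against 6.69, 22.7 and 0 CPM, a log2 difference of 4.27 ± 0.55 (edgeR adjusted p = 1.2e-06), with a wide range among the cDC1 sums. Cxcl16, the ligand of CXCR6, was even among libraries at 379, 370 and 331 CPM against 117, 86.9 and 123 CPM, a log2 difference of 1.95 ± 0.26 (edgeR adjusted p = 2.1e-06).

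The chemokine gene Ccl4 was lower in cDC1 at 310, 277 and 0 CPM against 7691, 1862 and 645 CPM in pDC, a log2 difference of -3.89 ± 0.42 (edgeR adjusted p = 8e-08). Il12a, the p35 chain of interleukin 12, was also lower at 0, 1.55 and 0 CPM against 40.1, 98.2 and 61.5 CPM, a log2 difference of -5.71 ± 0.71 (edgeR adjusted p = 1.4e-06). Only 2 Il12a UMIs were counted over all cDC1. Among 7 tested genes of nucleic acid sensing, 0 were higher and 1 lower, and the latter was Tlr7, the sensor of single-stranded RNA, at 0, 2.33 and 0 CPM against 144, 110 and 30.7 CPM (log2 difference -5.58 ± 0.58, edgeR adjusted p = 4e-08).

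Of 10 tested genes of costimulation and checkpoint ligands, 3 were higher in cDC1 and 1 lower. Cd86, a ligand of CD28, stood at 143, 206 and 253 CPM against 20.1, 64.2 and 61.5 CPM, a log2 difference of 2.12 ± 0.36 (edgeR adjusted p = 7.4e-05). Havcr2, which encodes the checkpoint receptor TIM-3, stood at 167, 151 and 136 CPM against 46.8, 37.8 and 61.5 CPM, a log2 difference of 1.97 ± 0.33 (edgeR adjusted p = 5.4e-05). Cd83, a surface protein of activated dendritic cells from the list of maturation genes, stood at 1076, 847 and 1209 CPM against 368, 219 and 154 CPM, a log2 difference of 2.07 ± 0.24 (edgeR adjusted p = 3.6e-07). Of 11 tested maturation genes, 4 were higher, 3 lower and 4 did not pass the test.

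All 8 tested pDC genes were lower in cDC1, as the limit on Siglech would favour. Tcf4, the transcription factor of the pDC lineage, stood at 36.7, 41.9 and 19.5 CPM against 562, 540 and 246 CPM, a log2 difference of -3.65 ± 0.30 (edgeR adjusted p = 9.2e-10). Bst2, a virus-tethering surface protein, stood at 363, 366 and 409 CPM against 4248, 4481 and 3687 CPM, a log2 difference of -3.37 ± 0.23 (edgeR adjusted p = 2.3e-11). Ly6d, a surface marker of pDC precursors, had 0 UMIs in cDC1 and was at least 60.1-fold lower, against a floor of 3 counts over all cDC1 sums. Of 12 tested cDC2 genes, 2 were higher in cDC1, 4 were lower and 6 did not pass the test, with a median of -0.04. Cd7, the largest of the lower differences in that list, stood at 40.7, 36.5 and 0 CPM against 1180, 1042 and 676 CPM in pDC, a log2 difference of -4.83 ± 0.31 (edgeR adjusted p = 6.7e-12).

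Outside these lists, the genes with the largest called differences and a mean of at least 50 CPM were named by rule. The rule also asked for the same direction in every library. Those higher in cDC1 were Pclaf, Timd4, Anxa1, Cd9, Anxa2, Slamf8, Anpep, Acvrl1, Phf11a and Sh3bp1. Pclaf, a partner of the replication clamp PCNA, stood at 85.6, 131 and 97.5 CPM against 3.34, 0 and 61.5 CPM, a log2 difference of 4.90 ± 0.67 (edgeR adjusted p = 3.6e-06). Timd4, a receptor for phosphatidylserine on dying cells, stood at 126, 97.8 and 117 CPM against 33.4, 3.78 and 0 CPM, a log2 difference of 3.08 ± 0.47 (edgeR adjusted p = 1.5e-05). Anxa1, a phospholipid-binding annexin, stood at 489, 297 and 331 CPM against 23.4, 69.9 and 92.2 CPM, a log2 difference of 2.85 ± 0.38 (edgeR adjusted p = 2.4e-06). Both Timd4 and Anxa1 had cDC1 sums above all pDC sums.

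The 10 genes named as lower in cDC1 were Atp1b1, Sh3bgr, Atp2a1, Dntt, Sla2, Slpi, Ldhb, Nrip2, Atp2b4 and Cd59a. Atp1b1, a chain of the sodium pump, had 0 UMIs in cDC1 against 906, 642 and 676 CPM in pDC and was at least 388-fold lower. Dntt, the terminal transferase of lymphoid precursors, had 0 UMIs against 174, 204 and 30.7 CPM and was at least 98.8-fold lower. Slpi, a protease inhibitor, stood at 0, 3.88 and 0 CPM against 1197, 1292 and 1413 CPM, a log2 difference of -8.58 ± 0.44 (edgeR adjusted p = 1.8e-13). Their shared direction in every library was set by the rule and is no further support.

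**Figure D3:**
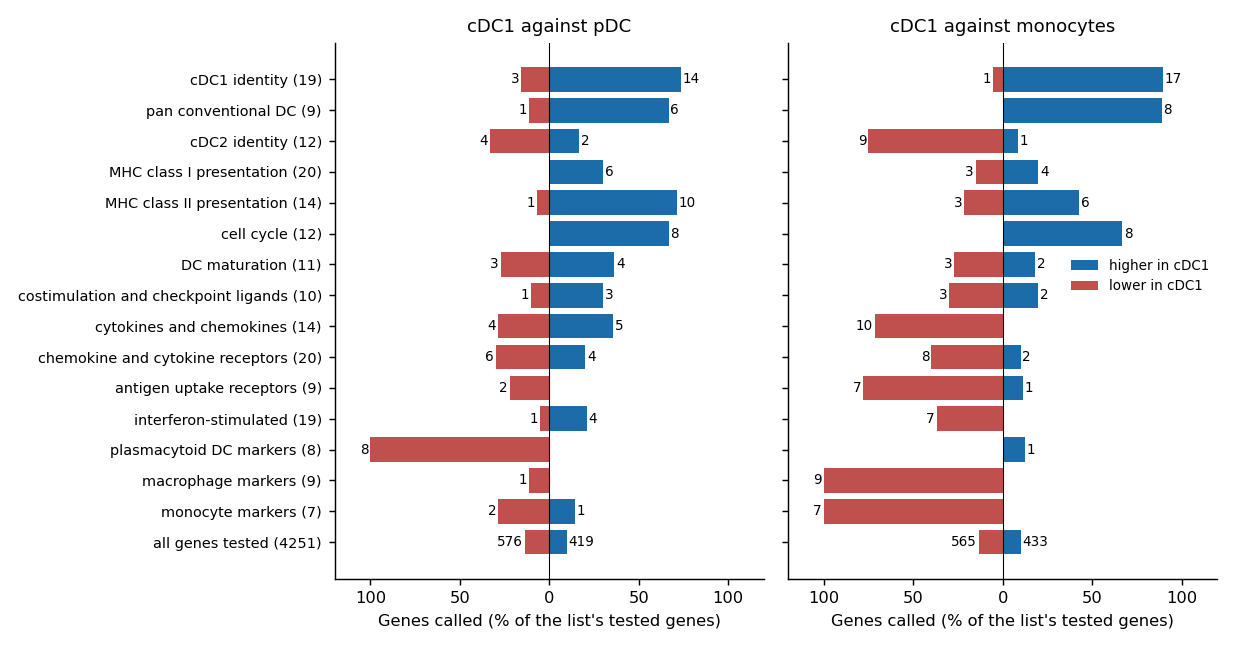
Share of tested genes in each list that were called higher (right, blue) or lower (left, red) in cDC1 than in pDC (left panel) and monocytes (right panel), in percent, with the number of genes at each bar, the number tested in parentheses and all 4251 genes tested at the bottom. Most cDC1 identity and cell cycle genes lie to the right in both panels, class II genes do so against pDC and are split against monocytes, and 10 of 14 cytokine and chemokine genes lie to the left against monocytes.

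Against monocytes, 998 genes were called (23.5% of those tested), 433 of them higher in cDC1 (10.2%) and 565 lower (13.3%), with a median log2 difference over all genes of -0.01. Of the 19 identity genes tested, 17 were higher and 1 was lower, with a median of 3.58, or 3.24 with genes absent from monocytes set to their bound. Of 14 class II genes, 6 were higher and 3 lower (median 0.51), and of 20 class I genes, 4 were higher and 3 lower (median -0.21). Of the 14 cytokine and chemokine genes, 0 were higher and 10 were lower, with a median of -1.41. All 9 tested macrophage genes and all 7 tested monocyte genes were lower in cDC1. The limits on Lyz2 and Ly6c2, set for monocytes only, favour that direction. Monocytes also had to lack Xcr1 and Clec9a UMIs, which favours higher identity genes in cDC1.

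The identity genes with the largest differences from monocytes are given first. Wdfy4 stood at 330, 362 and 312 CPM in cDC1 against 6.56, 6.0 and 0 CPM in monocytes, a log2 difference of 5.88 ± 0.51 (edgeR adjusted p = 2.2e-09). Cd24a, a surface glycoprotein of cDC1, stood at 603, 464 and 390 CPM against 0, 0 and 38.9 CPM, a log2 difference of 7.96 ± 0.63 (edgeR adjusted p = 5.4e-10). Irf8 stood at 978, 1098 and 370 CPM against 282, 254 and 117 CPM, a log2 difference of 1.91 (edgeR adjusted p = 4.4e-07). Itgae, Btla, Snx22, Gcsam and Cadm1 had 0 UMIs in monocytes and were at least 41.5-, 38.8-, 27.5-, 24.4- and 9.26-fold higher in cDC1 over all libraries, against a floor of 3 counts over all monocyte sums, though Cadm1 also had 0 UMIs in the cDC1 of library 3. Flt3 stood at 236, 116 and 58.5 CPM against 0, 2.00 and 0 CPM, a log2 difference of 6.24 ± 0.64 (edgeR adjusted p = 2.6e-08).

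Within the class II group, the direction differed by gene. H2-Oa, a chain of the regulator of peptide exchange, stood at 245, 190 and 39.0 CPM in cDC1 against 13.1, 4.00 and 0 CPM in monocytes, a log2 difference of 4.87 ± 0.55 (edgeR adjusted p = 1.3e-07). H2-Ob, its partner chain, had 0 UMIs in monocytes and was at least 12.97-fold higher. The lysosomal proteases went the other way. Lgmn, the asparaginyl protease legumain, stood at 81.5, 66.7 and 19.5 CPM against 768, 921 and 1049 CPM, a log2 difference of -3.78 ± 0.38 (edgeR adjusted p = 1.7e-08). Ctss, cathepsin S, stood at 957, 687 and 604 CPM against 3164, 3150 and 2837 CPM, a log2 difference of -2.04 ± 0.21 (edgeR adjusted p = 2.6e-08), and Ctsl was lower by a log2 difference of -3.61 ± 0.36 (edgeR adjusted p = 1.9e-08).

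Most cytokine genes tested were thus lower in cDC1 than in monocytes. Cxcl16 stood at 379, 370 and 331 CPM against 788, 700 and 816 CPM, a log2 difference of -1.05 ± 0.22 (edgeR adjusted p = 0.00068). Ccl5, a T cell and monocyte attractant, stood at 69.3, 367 and 58.5 CPM against 1641, 6696 and 5907 CPM, a log2 difference of -4.62 ± 0.75 (edgeR adjusted p = 3.2e-05). T cells held 8683, 11660 and 13450 CPM of Ccl5, and the part of free T cell RNA in either value was not tested. Il1b, interleukin 1 beta, stood at 2322, 1056 and 312 CPM against 4391, 2469 and 2021 CPM, a log2 difference of -1.47 ± 0.30 (edgeR adjusted p = 0.00054, and 0.28 with no replicate block). Against pDC, with 822, 140 and 0 CPM, Il1b was higher by 2.20 ± 0.33 on the log2 scale (edgeR adjusted p = 1.5e-05, and 0.12 with no replicate block), and its UMIs were in 60.0%, 72.1% and 62.5% of the cDC1 and in 3.87%, 3.85% and 0.777% of T cells.

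Cxcl9 also stood between the other types. In monocytes it stood at 1602, 877 and 1010 CPM, and the cDC1 sums of 676, 362 and 409 CPM were lower by 1.28 ± 0.27 on the log2 scale (log2 difference -1.28, edgeR adjusted p = 0.00062, and 0.091 with no replicate block). The antigen uptake list had 7 of 9 tested genes lower in cDC1 and 1 higher, with a median of -4.33. Fcgr1, the high-affinity Fc receptor, stood at 93.7, 85.4 and 19.5 CPM against 1070, 1003 and 1010 CPM, a log2 difference of -3.65 ± 0.41 (edgeR adjusted p = 1e-07). Of 19 interferon-stimulated genes, 0 were higher in cDC1 and 7 were lower, with a median of -0.72. Isg15, a ubiquitin-like protein, stood at 432, 248 and 78.0 CPM against 834, 574 and 3342 CPM (log2 difference -1.86, edgeR adjusted p = 0.00041), with library 3 the lowest in cDC1 and the highest in monocytes.

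Receptors and checkpoint ligands went in both directions against monocytes. Of 20 receptor genes, 2 were higher and 8 lower, with a median of -0.74. Cx3cr1, the fractalkine receptor, stood at 16.3, 7.76 and 0 CPM against 256, 260 and 77.7 CPM, a log2 difference of -4.80 ± 0.41 (edgeR adjusted p = 1.8e-09). Of 10 tested costimulation and checkpoint genes, 2 were higher, 3 lower and 5 did not pass the test, with a median of -0.35. Cd274, which encodes the checkpoint ligand PD-L1 and was among the lower genes, stood at 12.2, 38.8 and 0 CPM against 131, 154 and 311 CPM, a log2 difference of -2.50 ± 0.40 (edgeR adjusted p = 2.2e-05). Of the cDC2 genes, 9 of 12 were lower in cDC1 and 1 was higher. Sirpa, the receptor for CD47, stood at 36.7, 15.5 and 0 CPM against 269, 308 and 194 CPM, a log2 difference of -3.95 ± 0.39 (edgeR adjusted p = 1.5e-08).

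Of the genes outside the lists, the rule named Rtl8c, Ffar4, Tnni2, Pclaf and Cldn1 as higher in cDC1. Ffar4, a receptor for long-chain fatty acids, stood at 183, 162 and 78.0 CPM against 0, 2.00 and 0 CPM in monocytes, a log2 difference of 6.55 ± 0.74. Cldn1, a tight junction protein, stood at 130, 196 and 39.0 CPM against 0, 4.00 and 0 CPM, a log2 difference of 5.79 ± 0.67. Rtl8c, a gene derived from a retrotransposon, stood at 192, 280 and 175 CPM against 0, 2.00 and 0 CPM, a log2 difference of 7.18 ± 0.66 (edgeR adjusted p = 6.3e-09). The genes named as lower were Clec4e, Mgst1, F10, Apoc1 and Ecm1. Clec4e, a receptor for mycobacterial lipid, stood at 0, 1.55 and 0 CPM against 571, 174 and 1438 CPM, a log2 difference of -7.47 ± 0.48 (edgeR adjusted p = 2.7e-11).

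Library 2 alone allowed a view of cDC1 beside the other conventional dendritic cells. Here 111 cDC1 with a median of 11074 UMIs stood beside 20 Cd209a cDC2 with 6227.5 and 29 mature dendritic cells with 8411. With 1 library there is no test, and genes were counted past 4-fold among those with at least 100 CPM in either type, with a floor of 3 counts in a type. Intervals of the folds are 95% and cover counting error only. Of 1445 genes, 94 were past 4-fold (6.51%), 34 of them higher in cDC1 than in cDC2 (2.35%) and 60 lower (4.15%). With levels scaled by median ratios, which moved the median of all genes, the split was 45 higher and 44 lower. Of 14 identity genes, 10 were past 4-fold higher, with a median log2 difference of 2.86 (2.71 with genes absent from cDC2 at their bound) beside -0.06 over all genes. Of 9 cDC2 genes, 6 were past 4-fold lower. The limits on Xcr1, Clec9a and Cd209a favour both directions. The 10 class II genes and the 15 class I genes all lay within 4-fold.

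Irf8 stood at 1098 CPM in cDC1 and 155 CPM in cDC2, a fold of 7.08 (4.52 to 11.8). Wdfy4 stood at 362 against 32.6 CPM, a fold of 11.1 (4.30 to 40.8). Itgae had 237 UMIs in cDC1 and 0 in cDC2 and was at least 7.51-fold higher. Batf3 stood nearer to equality, at 135 against 73.5 CPM, a fold of 1.84 (0.946 to 4.09). H2-Aa stood 1.22-fold higher in cDC1 (1.17 to 1.28). The pair of types thus differed at Irf8, Wdfy4 and Itgae, not clearly at Batf3 and little at the class II alpha chain in this mouse.

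Most genes counted from the cDC2 list were past 4-fold lower in the cDC1 than in the cDC2 of library 2. Mgl2, a galactose-binding lectin, stood at 7.76 CPM against 375 CPM, 48.4-fold lower (24.1 to 108). Cd7, a gene of that list that was also high in pDC, stood at 36.5 against 898 CPM, 24.6-fold lower (17.3 to 35.4). S100a4, a calcium-binding protein of motile cells, stood at 154 against 1444 CPM, 9.40-fold lower (7.63 to 11.6). Il4i1, an enzyme that degrades aromatic amino acids and is listed with maturation, stood at 15.5 against 506 CPM, 32.6-fold lower (19.4 to 57.0). Cxcl10 stood at 105 against 1045 CPM, 9.97-fold lower (7.77 to 12.8), so this chemokine was higher in cDC2 of library 2 than in cDC1. Outside the lists, Txn1, thioredoxin, stood at 1199 against 122 CPM, 9.79-fold higher in cDC1 (5.92 to 17.5), and Cd33, an inhibitory sialic acid receptor, at 3.88 against 131 CPM, 33.7-fold lower (11.8 to 118).

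Mature dendritic cells, which leave tissues toward lymph nodes by the receptor CCR7, may derive from either conventional type. Of 1481 genes in library 2, 172 were past 4-fold (11.6%), 43 of them higher in cDC1 (2.90%) and 129 lower (8.71%). Of 18 maturation genes, 16 were past 4-fold lower in cDC1, with a median log2 difference of -3.34 (-3.35 at bounds) beside 0.10 over all genes. Mature cells had to hold both Ccr7 and Fscn1 UMIs and cDC1 could not, so the limits favour this direction. Il4i1 stood at 15.5 against 1152 CPM, 74.3-fold lower (47.2 to 123). Socs2, an inhibitor of cytokine signalling, stood at 2.33 against 295 CPM, 127-fold lower (41.7 to 629). Marcksl1, an actin-regulating protein, stood at 195 against 1822 CPM, 9.36-fold lower (8.0 to 11.0). Cd83 lay within 4-fold, at 847 against 1774 CPM, 2.09-fold lower (1.87 to 2.34).

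Costimulation and checkpoint genes were also mostly lower in cDC1 than in mature cells of library 2. Of 10 costimulation and checkpoint genes, 6 were past 4-fold lower and 1 higher. Cd40, the receptor for CD40 ligand, stood at 91.6 against 825 CPM, 9.02-fold lower (7.16 to 11.4). Cd274 stood at 38.8 against 534 CPM, 13.8-fold lower (9.88 to 19.5). Of 8 cytokine and chemokine genes, 2 were past 4-fold higher in cDC1 and 2 lower, with a median log2 difference of -0.06. Among the lower, Il12b, the p40 chain of interleukin 12 and 23, stood at 18.6 against 809 CPM, 43.5-fold lower (28.4 to 69.4). Each of these had UMIs in cDC1 all the same, at a level far below the mature cells.

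Some identity genes were as high in mature cells and some were not. Irf8 stood at 1098 CPM in cDC1 against 1224 CPM in mature cells, a fold of 0.897 (0.792 to 1.02). Naaa stood at 688 against 104 CPM, 6.63-fold higher in cDC1 (4.50 to 10.2), and Itgae was 6.59-fold higher (3.15 to 16.6). In all, 6 of 15 identity genes were past 4-fold higher in cDC1, with a median log2 difference of 0.98. Ccr2, the receptor for CCL2, stood at 213 against 31.9 CPM, 6.69-fold higher (3.35 to 15.7). Ccl4 stood at 277 against 31.9 CPM, 8.68-fold higher (4.36 to 20.3). The lipid carrier Fabp5, named by the size rule, stood at 9.31 against 2010 CPM, 216-fold lower (123 to 421).

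**Figure D4:**
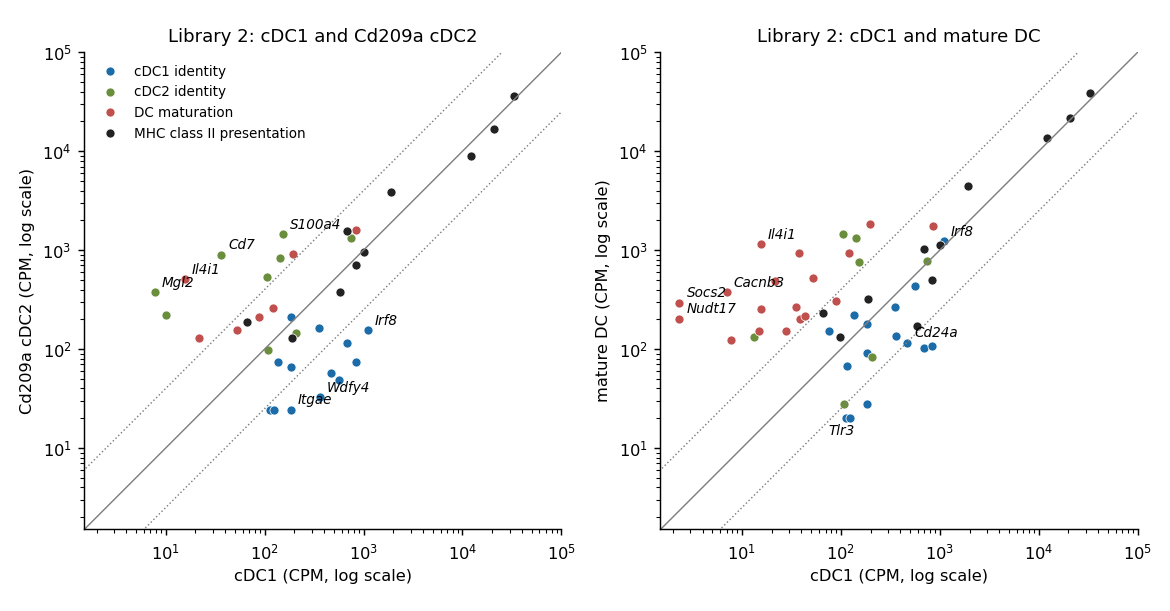
Levels in library 2 of genes from 4 lists in cDC1 (x axis) and in Cd209a cDC2 (left) or mature dendritic cells (right), in CPM on log scales, with a solid line of equality, dotted lines at 4-fold and genes under 3 counts drawn at 3 counts. cDC1 identity genes lie below the line on the left, class II genes lie near it in both panels, and maturation genes such as Il4i1 and Socs2 lie above the upper dotted line on the right.

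C1q macrophages, the large myeloid class of library 2, were set beside cDC1 last. H2-Aa stood 1.12-fold higher in cDC1 (1.10 to 1.13). Of 1433 genes, 227 were past 4-fold (15.8%), 76 of them higher in cDC1 (5.30%) and 151 lower (10.5%), with a median log2 difference over all genes of 0.34 relative to which single genes are to be read. Of 15 identity genes, 12 were past 4-fold higher, and of 11 class II genes, 1 was past 4-fold higher and 3 lower. Cd24a stood at 464 against 1.55 CPM, 300.2-fold higher (193 to 495). Flt3 stood at 116 against 2.24 CPM, 51.9-fold higher (34.7 to 80.2). H2-Oa stood at 190 against 19.0 CPM, 9.998-fold higher (8.34 to 11.98).

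The 9 macrophage genes counted were all past 4-fold lower in cDC1, with a median log2 difference of -4.48, as the limits on C1q would favour. Apoe stood at 371 against 33460 CPM, 90.2-fold lower (82.5 to 98.9), while 31.7% of the T cells of that library also held its UMIs. Lgmn stood at 66.7 against 1583 CPM, 23.7-fold lower (19.2 to 29.7), and Ctss at 687 against 4371 CPM, 6.37-fold lower (5.96 to 6.81). Secreted chemokines named by the size rule were lower still. Cxcl13, the B cell attractant, stood at 6.21 against 4987 CPM, 803-fold lower (408 to 1861). Ccl8, a monocyte attractant, stood at 19.4 against 13810 CPM, 712-fold lower (482 to 1100).

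Cell cycle genes were higher in cDC1 than in both replicated types. Of 12 tested, 8 were higher and 0 lower against pDC (median log2 difference 1.36) and 8 were higher and 0 lower against monocytes (median 2.70, or 2.47 at bounds). Stmn1, a regulator of microtubules, stood at 48.9, 177 and 117 CPM in the cDC1 of libraries 1, 2 and 3 against 10.0, 7.55 and 61.5 CPM in pDC, a log2 difference of 3.54 ± 0.51 (edgeR adjusted p = 6.8e-06). Against monocytes, with 0, 8.01 and 0 CPM, its log2 difference was 4.42 ± 0.61 (edgeR adjusted p = 2.8e-06). Tyms, thymidylate synthase, stood at 32.6, 54.3 and 58.5 CPM against 3.34, 11.3 and 0 CPM in pDC, a log2 difference of 2.59 (edgeR adjusted p = 0.0015, and 0.078 with DESeq2). The group count against pDC moved with the test, to 7 of 11 without library 1, 3 of 4 without library 2, 1 of 6 with no replicate block, 3 of 22 with DESeq2 and 1 of 3 with cells thinned to equal depth.

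The share of cDC1 with a UMI of Mki67 or Top2a, genes of dividing cells, was 15.0% in library 1 (3 of 20, 95% exact interval 3.21 to 37.9), 18.9% in library 2 (21 of 111, 12.1 to 27.5) and 12.5% in library 3 (1 of 8, 0.316 to 52.7). In pDC it was 3.57%, 2.25% and 0%, and in monocytes 11.1%, 3.37% and 0%. In library 2 it was 17.2% in mature dendritic cells (5 of 29), close to the cDC1, 10.0% in cDC2 and 7.85% in C1q macrophages. The summed level of the cell cycle genes in library 2 was 4458 CPM in cDC1, 5901 CPM in mature cells and 2105 CPM in cDC2. T cells held such UMIs in 18.0%, 10.3% and 6.48% and do divide here, so they give no background share for free RNA. The cDC1 were the deeper cells, and with each cell thinned to 1500 UMIs the share was 0% in library 1 (0 of 20, up to 16.8%), 7.27% in library 2 (8 of 110, 3.19 to 13.8) and 14.3% in library 3 (1 of 7). At that depth, in library 2, it was 0% in pDC (up to 4.06%), 0% in monocytes (up to 4.11%), 1.33% in C1q macrophages (0.837 to 2.01), 0% in cDC2 (up to 16.8%) and 3.70% in mature cells. In library 2 the cDC1 interval thus lay above that of macrophages and overlapped those of pDC and monocytes. With 20 and 7 thinned cDC1 in libraries 1 and 3, the intervals there overlapped those of the other types.

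**Figure D5:**
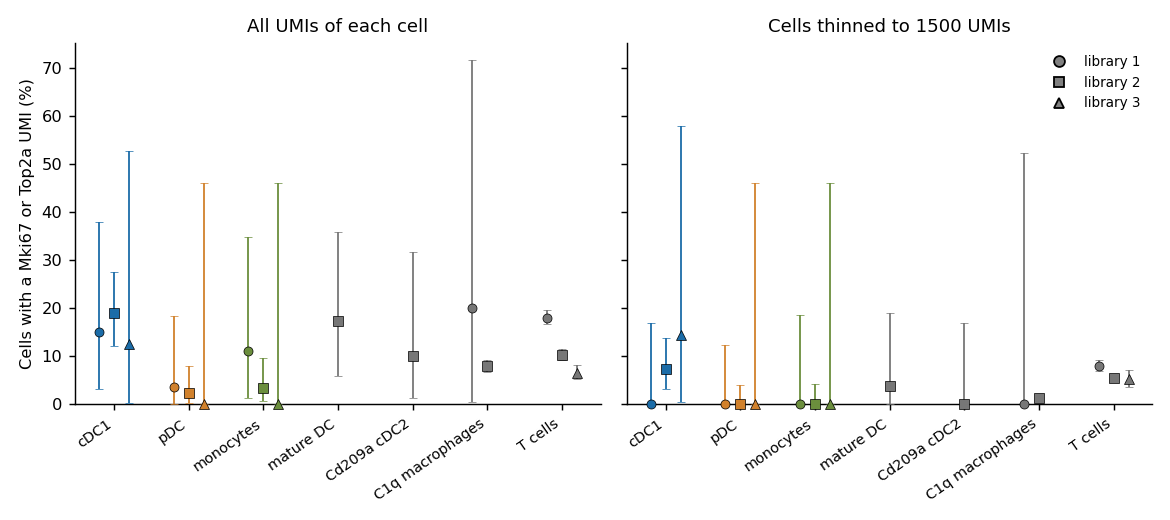
Percent of cells with a UMI of Mki67 or Top2a (y axis) in each cell type with at least 5 cells, by library, with all UMIs and with cells thinned to 1500 UMIs, and exact 95% intervals as bars. In library 2 the share of cDC1 was 18.9% with all UMIs and 7.27% thinned, against 1.33% in thinned macrophages, and intervals are wide in libraries 1 and 3.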

How the data were processed

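Single-cell RNA was measured in 3 libraries of CD45+ cells from sciatic nerves. The authors aligned reads of a 5′ kit against mm10 in Cell Ranger (per the file headers, 5.0.1 for library 1 and 6.1.2 for libraries 2 and 3) and deposited UMI counts of its filtered barcodes, not normalized. Seurat, which the submitters' notes also name, was not used here. Library 1 had no gene list among the files used here, so the list shared by the others was applied: its row totals had Spearman correlations across genes of 0.9501 and 0.9287 with libraries 2 and 3, and 0.3553 and 0.3241 after shifting by 1 row. The depth was 22983991, 55120460 and 3399733 UMIs per library.

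Cell groups followed the limits of cDC1 with changes. cDC2, macrophages and monocytes had no Xcr1 or Clec9a UMI, while pDC and mature cells had no limit on these genes. cDC2 had at least 1 Cd209a UMI, mature cells had both Ccr7 and Fscn1 UMIs, and macrophages had at least 5 C1q UMIs. pDC had at least 2 Siglech UMIs, and monocytes had at least 3 Lyz2 and 1 Ly6c2 UMIs. T cells, a reference, had at least 2 Cd3 UMIs and no UMI of Cd79a, C1q, Xcr1 or Clec9a, with no limit on the other genes. Doublets were not called, and the limits only remove cells with UMIs of the other types. The members, gene lists and rules were chosen with earlier results of these data known.

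The planned fit over cDC1, Cd209a cDC2, mature cells and macrophages had 0 residual degrees of freedom, since only library 2 had 10 cells of the last 3 types. Tests against pDC and monocytes were added after the data were seen, with 9 sums of at least 5 cells in 1 fit (edgeR 4.0.16 in R 4.3.3, TMM, filterByExpr, library block). The planned limit was 10 cells per sum, which would leave out the cDC1, pDC and monocyte sums of library 3 (8, 6 and 6 cells). Genes used as limits stayed in totals and out of tests, and a repeated gene symbol was counted by its first row. The fits were tested on simulated counts with 200 changed genes. The text names list members with the largest differences, at least 20 CPM preferred, and, outside the lists, called genes with the largest differences and a mean of at least 50 CPM. Tested genes outside the lists also had to go the same way in every library to be named. Some list members were named for their known role after their values were seen. Alternatives were DESeq2 1.42.0, other scalings and filters, leaving out each library, thinning to 1500 UMIs and other cell limits.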

Additional observations from a re-analysis of the deposited data

How the results depend on the processing

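The library block rests on cell types of a library sharing mice. Fits with no replicate block called 431 genes against pDC (114 higher in cDC1, 317 lower) and 528 against monocytes, where the fits with the block called 995 and 998. DESeq2 called 525 and 636. Leaving out 1 library gave 360 to 1030 genes against pDC and 384 to 976 against monocytes, the lowest counts without library 2 and with 572 and 721 without library 1, which leaves the libraries of 1 Cell Ranger version. Cells thinned to 1500 UMIs gave 222 and 190. Against pDC, leaving out cells with T or B cell UMIs gave 622 and raising the Cd3 and Cd79a limits to 3 gave 1589, an alternative chosen after seeing the data. In library 2, thinning left 211 genes past 4-fold against cDC2 (9 higher, 202 lower), with the floor of 3 counts unchanged on fewer UMIs, and median-ratio scaling moved the share higher in cDC1 from 36.2% to 50.6%. Over 60 named gene differences and 859 alternative values, 843 kept their direction and their side of the threshold, 16 kept only the direction and 0 reversed. Differences that fell out of testing in an alternative are not among these values. With thinned cells 37 of the 60 were tested, and without library 2, 48 of the 60. The limit of 10 cells per sum and leaving out library 3 give the same fit, which is counted under both. The mean share of dividing cDC1, 15.5%, became 25.33% with at least 2 Xcr1 and Clec9a UMIs and 7.186% thinned, and 13.75% to 16.96% leaving out 1 library. The 25.33% averages 17.6%, 25.0% and 33.3% in libraries 1, 2 and 3, the last from 1 of 3 cells. Those cells were also deeper, at medians of 14663, 11910.5 and 10202 UMIs against 3688, 8781 and 3628 with 1 such UMI. The mean share of cDC1, 0.795%, became 0.521% to 0.933% leaving out 1 library, 0.552% to 0.824% under the other alternatives for the cell limits and 1.035% with the Cd3 and Cd79a limits at 3. Planned fits against cDC2, mature cells and macrophages had 1 residual degree of freedom with no replicate block (129, 457 and 858 genes called) or with sums of at least 5 cells (103, 355 and 956), and were not used. Other alternatives set for these tests were not run, since there was no test to vary. The cause of these changes was not tested.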
